A study of Homo sapiens with 40 samples.

Results

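The HOX cluster genes are the 39 protein-coding genes whose symbol is HOXA, HOXB, HOXC or HOXD followed by a number only, out of 60664 genes in the deposited table. The HOXA cluster on chromosome 7 holds 11 of them, HOXB on chromosome 17 holds 10, HOXC on chromosome 12 holds 9 and HOXD on chromosome 2 holds 9. Of the 39, 34 had enough counts to be tested.

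HOX genes encode homeodomain transcription factors that specify position along the head-to-tail axis of the embryo. Genes of low number act in the hindbrain, neck and pharyngeal arches, while genes of high number act in the lumbar and tail regions, the distal limbs and the urogenital tract. Polycomb proteins hold silent parts of a cluster in repressed chromatin, and trithorax proteins and retinoic acid support active parts. The embryonic kidney needs the genes numbered 11, and many HOX genes stay on in kidney tubules and kidney tumours.

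The cells were 786-0, an established line of human clear cell renal cell carcinoma, with SETD2 wild type (WT) or knocked out (KO). SETD2 trimethylates lysine 36 of histone H3. Each line was sequenced untreated at day 0 and after 5, 16 and 26 days with DAC at 100 nM (decitabine, a nucleoside that traps DNA methyltransferases), with BMN at 10 nM (BMN673, talazoparib, a PARP inhibitor) or with both, called the combination below. These are 20 groups of 2 libraries each. Each genotype is 1 line, and the labels do not say whether the 2 libraries of a group came from separate cultures, so p-values measure only the spread between these libraries, which may be technical. Comparisons of treated cells with day 0 also carry time in culture, since the samples hold no untreated cells after day 0, and those of a line share its 2 control libraries.

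The libraries held 17833960 to 22631101 counts. Levels are in CPM, the usual depth-scaled counts, on library sizes after TMM scaling, which evens out differences in composition between libraries. Changes are log2 differences ± standard error from edgeR's quasi-likelihood test over 22527 genes, with 0.05 as the limit of the adjusted p for a call. SETD2 RNA was at 149 and 130 CPM in the WT controls and at 141 and 113 CPM in the KO controls, which overlap (log2 difference -0.13 ± 0.07, edgeR adjusted p = 0.2), so its RNA level does not check the knockout. Of the markers of clear cell renal carcinoma, PAX8 ran from 210 to 481 CPM and VIM from 2980 to 5430 CPM over the 40 libraries, while CA9 did not exceed 3.05 CPM and NDUFA4L2 3.01 CPM. The summed level of 10 markers of other cell types ran from 1.31 to 8.04 CPM in the 4 controls, from 0.775 to 8.99 CPM in the 12 libraries with BMN alone and from 3.81 to 29.9 CPM in the 24 libraries with DAC, alone or combined. The epithelial gene EPCAM reached 24.5 CPM and KRT5 4.07 CPM, while the blood cell gene PTPRC stayed at or below 0.279 CPM and HBB was at 0 in every library. The part of these markers in the results below was not tested. In such bulk samples, fewer cells that express a gene and less RNA per cell cannot be told apart.

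The starts of 5 members that the results turn on are shown first, since DAC acts on methylation of the CG dinucleotide. Each run covers 250 bases before and 50 bases after the start, 5′ to 3′ on the gene's strand, from RefSeq on GRCh38.p14, with every CG in capitals. HOXA4 (chr7:27130708-27131007, minus strand) and HOXA10 (chr7:27179812-27180111, minus strand) fell with DAC. HOXA11 (chr7:27185183-27185482, minus strand) and HOXD11 (chr2:176107030-176107329, plus strand) rose in most comparisons with DAC. HOXA7 (chr7:27156626-27156925, minus strand) was low in KO cells.
HOXA4: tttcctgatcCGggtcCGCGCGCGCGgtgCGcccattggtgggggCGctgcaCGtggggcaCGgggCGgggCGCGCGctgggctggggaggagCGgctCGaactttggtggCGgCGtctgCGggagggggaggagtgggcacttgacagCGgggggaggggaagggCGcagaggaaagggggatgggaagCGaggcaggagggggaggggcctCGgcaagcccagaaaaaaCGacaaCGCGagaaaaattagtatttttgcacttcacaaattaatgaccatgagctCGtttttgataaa
HOXA10: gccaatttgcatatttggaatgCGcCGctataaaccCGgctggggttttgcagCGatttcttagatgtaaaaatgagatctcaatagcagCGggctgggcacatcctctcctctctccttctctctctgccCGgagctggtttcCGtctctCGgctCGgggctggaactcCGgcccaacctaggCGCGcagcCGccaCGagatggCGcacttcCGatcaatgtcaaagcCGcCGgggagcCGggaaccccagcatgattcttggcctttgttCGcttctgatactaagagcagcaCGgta
HOXA11: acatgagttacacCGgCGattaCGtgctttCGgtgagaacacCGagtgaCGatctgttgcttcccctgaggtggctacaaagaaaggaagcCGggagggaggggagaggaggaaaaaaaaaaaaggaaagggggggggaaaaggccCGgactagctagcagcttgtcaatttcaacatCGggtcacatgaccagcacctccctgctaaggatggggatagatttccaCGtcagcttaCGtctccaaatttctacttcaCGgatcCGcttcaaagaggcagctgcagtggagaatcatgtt
HOXD11: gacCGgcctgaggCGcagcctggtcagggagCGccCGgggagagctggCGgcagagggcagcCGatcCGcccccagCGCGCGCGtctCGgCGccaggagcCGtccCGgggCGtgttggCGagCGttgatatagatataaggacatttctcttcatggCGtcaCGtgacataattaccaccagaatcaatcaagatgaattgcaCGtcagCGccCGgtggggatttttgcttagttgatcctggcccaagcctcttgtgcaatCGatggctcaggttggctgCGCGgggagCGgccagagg
HOXA7: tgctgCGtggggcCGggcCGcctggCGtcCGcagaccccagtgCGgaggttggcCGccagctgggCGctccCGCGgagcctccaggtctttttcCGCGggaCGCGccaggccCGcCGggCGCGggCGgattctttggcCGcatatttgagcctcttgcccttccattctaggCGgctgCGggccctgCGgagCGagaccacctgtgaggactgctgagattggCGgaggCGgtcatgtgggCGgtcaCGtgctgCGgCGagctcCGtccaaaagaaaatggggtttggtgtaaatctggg
The motif searched was CG, which reads the same on both strands. The window of HOXA4 held 27 and that of HOXD11 27, a number that 28.2% of the 35116 starts of all genes reach. HOXA10 held 21 (39.5% of starts reach it) at the start shown and 25 (32.0%) at its other RefSeq start (chr7:27174271-27174570), HOXA11 13 (51.7%) and HOXA7 31 (20.7%). HOXA4, which fell, and HOXD11, which rose, held the same number, and HOXA11, which also rose, held the fewest of the 5 genes. A relation between the number of CG and the response was not tested. RefSeq starts were matched for 20 of the 39 genes, 27 starts in all, with a median of 22 CG per 300 bases against 14 over all starts. The counts ran from 0 to 44, the highest at HOXA13. Methylation of these windows was not analysed here.

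Untreated 786-0 cells expressed members of all 4 clusters, HOXA the most. Per kilobase of exon, a scale on which genes of different length can be compared, HOXA3 had the highest level of all members, at 59.7 and 76 CPM per kb in the WT controls and 49.7 and 52.5 in the KO controls. HOXA3 acts in the pharyngeal arches, from which thymus and parathyroid form. HOXB9, a thoracic gene, came next, at 34.3 ± 4.45 CPM per kb (SD, n = 2) in WT and 24.1 ± 0.177 (SD, n = 2) in KO cells. HOXA10 and HOXA9, lumbar and thoracic genes that also act in blood progenitors and leukaemia, followed at 24 and 23.8 CPM per kb in WT cells and at 13.3 and 14.5 in KO cells. HOXA5, needed for the lung, was at 17.6 CPM per kb in WT and 9.2 in KO cells. Libraries overlapped in 4 of the 9 neighbouring pairs among the 10 highest members of the WT controls, so these pairs have no order.

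The highest member of HOXD was HOXD10, a gene of the lumbar cord and hind limb, at 13.1 CPM per kb in the WT controls. In HOXC, HOXC9, a thoracic gene, had the highest mean, at 4.01. Its libraries, at 3.6 and 4.41, overlapped those of HOXC6, at 3.12 and 3.79, so these genes have no order. The median member was at 8.89 CPM per kb in HOXA, 6.36 in HOXB, 3.51 in HOXD and 1.26 in HOXC. By position, the median over the WT controls was 5.3 CPM per kb for the 12 genes numbered 1 to 4, 4.12 for the 11 numbered 5 to 8 and 2.35 for the 16 numbered 9 to 13. The last class ran from 0 to 34.3. Levels did not follow position in the same way in each cluster: the genes numbered 9 to 13 had a median of 12.8 in HOXA and 0.133 in HOXC.

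**Figure D1:**
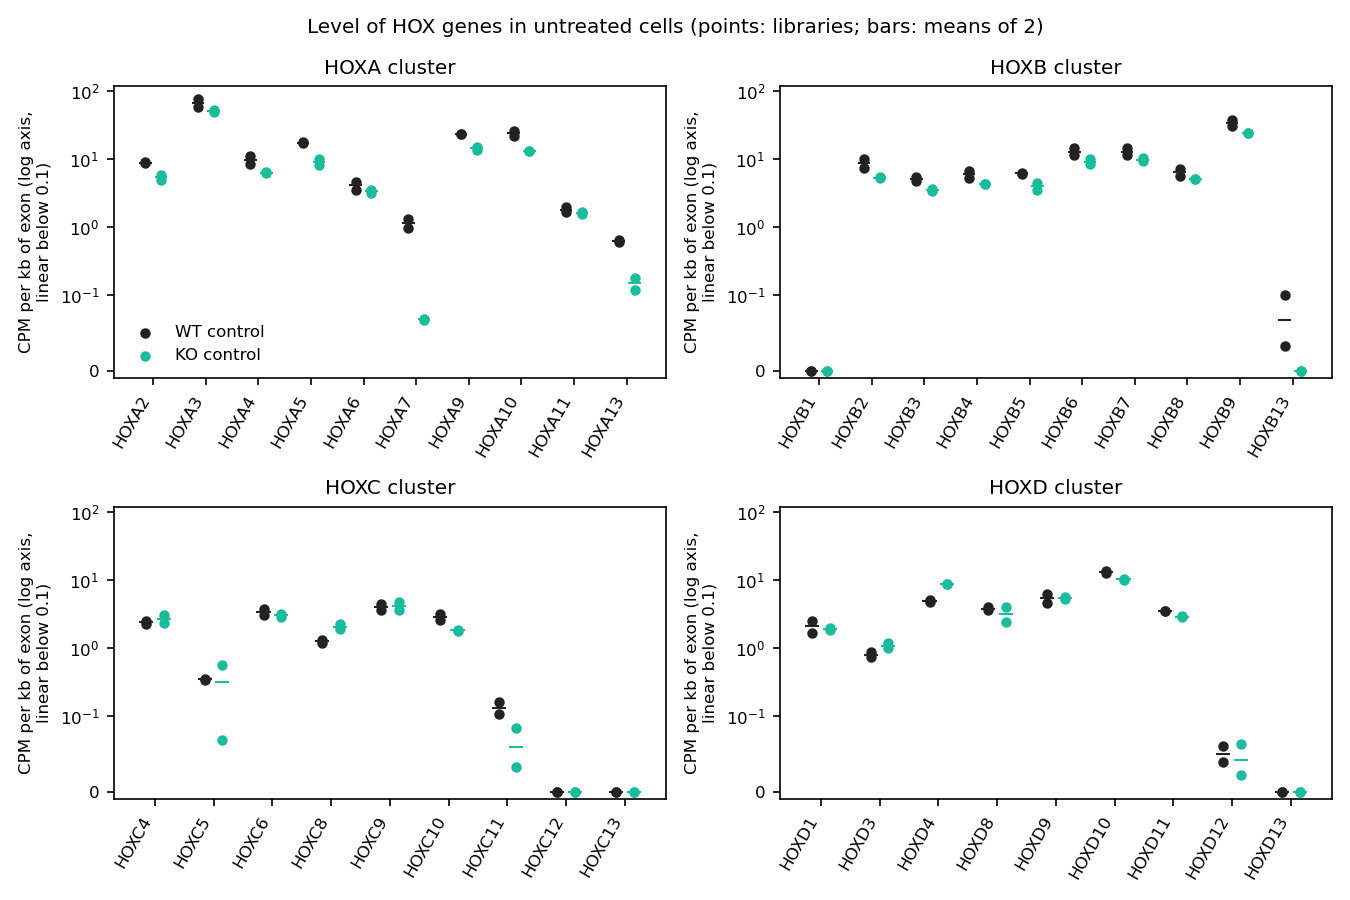
Level of HOX genes (CPM per kilobase of exon) in untreated WT and KO cells, by cluster and in order of number; points are libraries and bars the means of 2. HOXA3 stands highest at 67.9 in WT and 51.1 in KO, and HOXA7 is at 1.15 in WT and 0.0679 in KO.

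The HOXA3 gene model (ENSG00000105997, chromosome 7, 27106184 to 27152583) spans HOXA4, HOXA5 and HOXA6. In all, 16 members share exon bases with another gene on their strand, most of all HOXC5 with 67.3%, HOXA4 with 31.3% and HOXD11 with 21.4%. Fragments overlapping several genes of a strand were not counted, so the levels of these genes are uncertain.

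The 5 members not tested were HOXB1, HOXC12, HOXC13, HOXD12 and HOXD13. HOXB1, a hindbrain gene, had no count in 36 of 40 libraries and at most 3 in any. HOXC12 and HOXC13 had none in 37 and 30 libraries and at most 2 counts. HOXD12 and HOXD13, genes of the digits, had none in 12 and 26 libraries and at most 7 and 5. No change can be read from these 5 at this depth.

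Untreated KO cells had lower HOXA and HOXB levels than untreated WT cells. Of 34 members 19 were lower and 2 higher in KO, 61.8% in all, where 27.2% of all genes tested passed, 13.9% lower and 13.4% higher. In HOXA 9 of 11 were lower and in HOXB 8 of 9, with no member higher in either, while HOXC and HOXD each had 1 lower and 1 higher of 7. The median log2 difference was -0.69 in HOXA, -0.49 in HOXB with HOXB13 at its bound, -0.12 in HOXC and -0.13 in HOXD, against -0.01 over all genes tested. With 1 line of each genotype, genotype and line cannot be told apart. In a fit of only these 4 libraries 12 members passed. Fewer than 21 also passed when any 1 of them was left out. The number was lowest without WT control library 2. That library had the higher HOXA sum of the WT controls, 596 against 507 CPM, and the higher HOXB sum, 265 against 219 CPM.

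HOXA7 (ENSG00000122592, chromosome 7, 27153716 to 27157936), a thoracic gene, was at 3.23 and 2.33 CPM in the WT controls and at 0.162 and 0.165 CPM in the KO controls. The groups lay far apart, with 109 counts against 6. The ratio was 17 with an exact 95% interval of 7.57 to 47.4, which covers counting error only, and the log2 difference was -4.04 ± 0.49 (edgeR adjusted p = 5.3e-08). The gap held under every treatment: the 20 WT libraries ran from 1.2 to 4.2 CPM and the 20 KO libraries from 0.0993 to 0.744 CPM. HOXA-AS3, which covers 62.5% of the exon bases of HOXA7 on the other strand, was also lower in KO controls, at 1.73 and 1.82 CPM against 3.63 and 4.09 (-1.12 ± 0.28, edgeR adjusted p = 0.0023). Counting used the strand, and over 367 pairs of a gene and its antisense partner the antisense density had a median of 0.00792 of the sense density.

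HOXA13 (ENSG00000106031, chromosome 7, 27193503 to 27200091), a gene of the digits and the urogenital tract, was at 3.07 and 3.31 CPM in the WT controls and at 0.917 and 0.606 CPM in the KO controls, without overlap (-2.06 ± 0.37, edgeR adjusted p = 3.8e-05). HOXB13, a prostate gene at the far end of HOXB, had 2 and 6 counts in the WT controls and none in the KO controls. Against a floor of 3 counts per library, WT was at least 1.26-fold higher. HOXA5 was at 29.5 and 31.1 CPM in WT and 14.2 and 17.5 CPM in KO (-0.94 ± 0.11, edgeR adjusted p = 3.5e-08), and HOXA10 at 82.8 and 95.6 CPM against 48.7 and 49.9 CPM (-0.86 ± 0.09, edgeR adjusted p = 1.8e-09). Both were higher in each WT library than in each KO library. HOXA3 differed by less, at 257 and 328 CPM in WT and 214 and 226 CPM in KO (-0.41 ± 0.09, edgeR adjusted p = 0.00041).

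In HOXB, HOXB9 was at 80.5 and 96.8 CPM in WT and 62 and 62.6 CPM in KO (-0.51 ± 0.09, edgeR adjusted p = 4.5e-05), and HOXB2, a hindbrain gene, at 18.5 and 24.9 CPM against 13.3 and 12.8 CPM (-0.73 ± 0.13, edgeR adjusted p = 4.1e-05). HOXB8 was the HOXB member that did not pass (-0.33 ± 0.15, edgeR adjusted p = 0.11), and the call of HOXB5 was lost without KO control library 2 (adjusted p up to 0.07). The members higher in KO were HOXD4, a neck gene, at 5.8 and 5.49 CPM in WT and 9.93 and 9.97 CPM in KO (0.82 ± 0.15, edgeR adjusted p = 6.1e-05), and HOXC8, a lower neck and thoracic gene, at 3.17 and 2.9 CPM against 5.45 and 4.57 CPM (0.72 ± 0.24, edgeR adjusted p = 0.024). Neither overlapped between the lines. The call of HOXC8 was lost without WT control library 1, KO control library 1 or WT control library 2 (adjusted p up to 0.18). HOXD10 (-0.35 ± 0.09, edgeR adjusted p = 0.003) and HOXC10 (-0.65 ± 0.21, edgeR adjusted p = 0.02) were lower in KO, the latter not without WT control library 1, KO control library 1 or KO control library 2 (adjusted p up to 0.19).

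**Figure D2:**
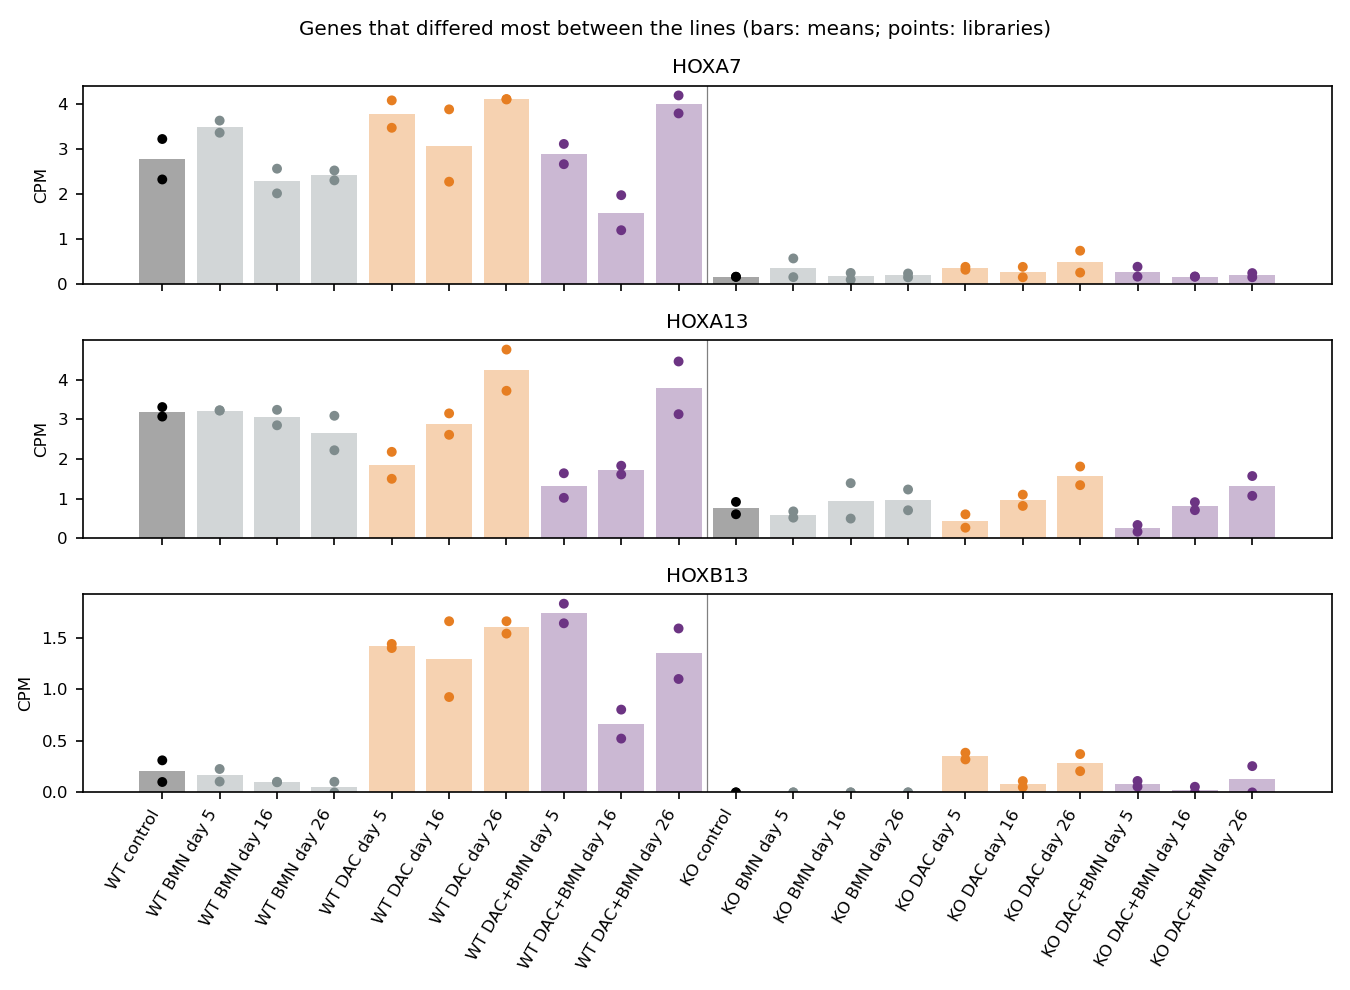
CPM of HOXA7, HOXA13 and HOXB13 in the 20 groups, WT and KO; bars are means and points the 2 libraries. HOXA7 ran from 1.2 to 4.2 in WT and from 0.0993 to 0.744 in KO libraries, HOXA13 was lower in KO than in WT controls, and HOXB13 was at 1.4 and 1.44 in WT cells after 5 days of DAC.

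With DAC the summed level of HOXA dropped in both lines, and that of the other clusters moved less. The 11 HOXA genes summed to 507 and 596 CPM in the WT controls, to 277 and 273 CPM after 16 days of DAC and to 154 and 148 CPM after 16 days of the combination. In KO cells the sums were 365 and 381, 156 and 159, and 132 and 136 CPM. All libraries with DAC lay below both controls of their line. The ratio to the line's control mean over the 12 groups with DAC, alone or combined, ran from 0.274 to 0.65 in HOXA, from 0.783 to 0.921 in HOXB, from 0.82 to 1.26 in HOXC and from 0.951 to 1.44 in HOXD. With BMN alone it ran from 0.758 to 0.933 in HOXA and from 0.821 to 0.908 in HOXB. For HOXC it ran from 0.799 to 0.969 and for HOXD from 0.846 to 0.979. The HOXB ratios with BMN alone thus lay inside the range with DAC. HOXA3 made up 53.0% of the HOXA sum in the WT controls and HOXB9 36.6% of the HOXB sum, so these sums weigh the most abundant member. HOXC6 held 33.1% of the HOXC sum and HOXD10 44.5% of the HOXD sum.

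**Figure D3:**
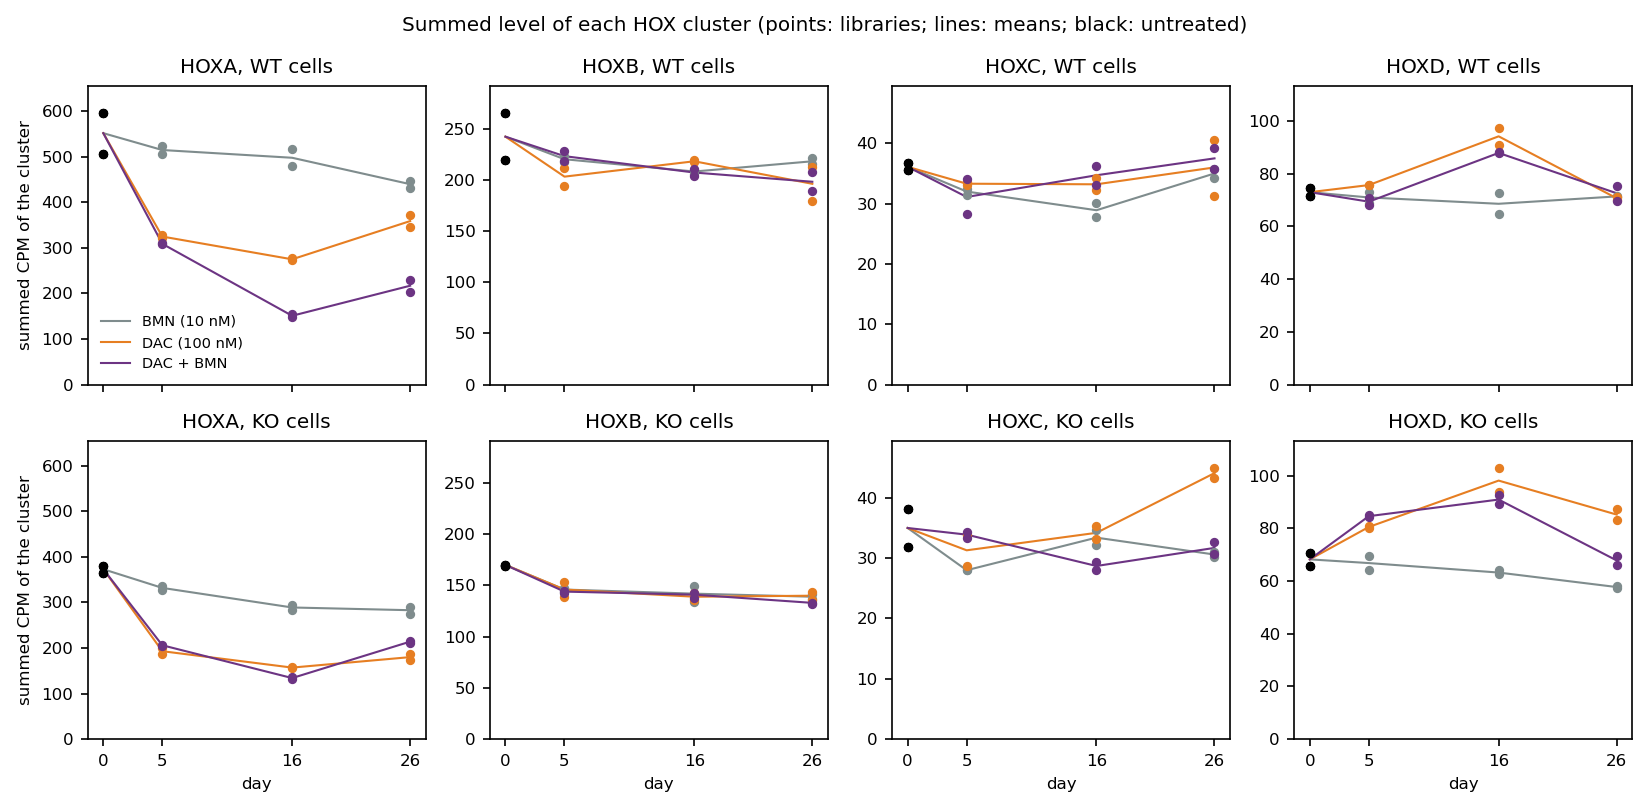
Summed CPM of each cluster over days 0, 5, 16 and 26 in WT and KO cells; points are libraries, lines join means, and black points are untreated cells. HOXA lies below control with DAC and with both drugs at each day, with both drugs at day 16 at 154 and 148 in WT and 132 and 136 in KO cells.

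In numbers of genes, DAC lowered 10 of 34 members and raised 2 at day 5 in WT cells, where 27.8% of all genes tested passed, 12.2% lower and 15.6% higher. It lowered 8 and raised 4 at day 16, where 33.5% of all genes tested passed, 14.9% lower and 18.6% higher, and lowered 10 and raised 2 at day 26, where 31.9% of all genes tested passed, 13.2% lower and 18.7% higher. In both directions together the share of members was 35.3% at each day, near the background. By direction, the share lower was above that of all genes at each day and the share higher was below it. This difference was not tested. In KO cells DAC lowered 11 and raised 4 at day 5, where 35.4% of all genes tested passed, 16% lower and 19.5% higher. Day 16 gave 11 lower and 4 higher, where 37.7% of all genes tested passed, 17.8% lower and 19.9% higher, and day 26 gave 10 and 6, where 47.2% of all genes tested passed, 20.9% lower and 26.3% higher. The combination in WT cells lowered 13 and raised 6 at day 5, where 39.5% of all genes tested passed, 18.2% lower and 21.2% higher. At day 16 it lowered 12 and raised 6, where 43% of all genes tested passed, 20.1% lower and 22.8% higher, and at day 26 11 and 4, where 41.1% of all genes tested passed, 18.7% lower and 22.4% higher. For KO cells the numbers with the combination were 12 lower and 5 higher at day 5, where 49.2% of all genes tested passed, 22.2% lower and 27.1% higher. They were 10 and 3 at day 16, where 42.6% of all genes tested passed, 19.5% lower and 23.1% higher, and 11 and 0 at day 26, where 34.7% of all genes tested passed, 14.3% lower and 20.4% higher. Without KO DAC day 5 library 2, 8 members passed at that day in place of 15, and in a fit of only its own 4 libraries day 26 of DAC in WT cells gave 5 in place of 12.

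The clusters differed in these counts. At day 16 of DAC in WT cells 7 of 11 HOXA members fell and 1 rose, 1 of 9 HOXB members fell and 1 rose, no HOXC member passed and 2 of 7 HOXD members rose. In KO cells 8 HOXA members fell and 1 rose, 3 HOXB members fell, no HOXC member passed and 3 HOXD members rose. The median log2 change of HOXA was -0.74 in WT and -0.66 in KO, against 0.03 and 0.04 over all genes tested. With the combination at day 16 it was -1.66 and -1.07.

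HOXA3 fell in all 12 comparisons of DAC or the combination with control, by 0.88 to 2.48 on the log2 scale. In WT cells it was at 257 and 328 CPM in controls and at 149 and 145, 112 and 109, and 143 and 175 CPM after 5, 16 and 26 days of DAC. In KO cells it was at 214 and 226 CPM in controls and at 103 and 90.7, 61.7 and 64.6, and 75.8 and 83.6 CPM. All DAC libraries lay below both controls of their line. The log2 change at day 16 was -1.4 ± 0.09 in WT (edgeR adjusted p = 8.6e-15) and -1.8 ± 0.09 in KO (edgeR adjusted p = 2.1e-17).

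HOXA4, HOXA6, HOXA10 and HOXB9 also fell in all 12 comparisons, and HOXA2, HOXA5 and HOXA9 in 11. The 12 calls of HOXA3 and of HOXA10 each held without any 1 library, while some of the others did not, as given below. With BMN alone HOXA3, HOXA5 and HOXA10 were also lower than control in 3 of 6 comparisons, HOXA6 in 2, and HOXA4 and HOXB9 in 1. HOXA2 and HOXA9 were lower in 0 of these 6. Some of these BMN calls were lost without 1 library. HOXA10 (ENSG00000253293, chromosome 7, 27170592 to 27180261), which acts in the lumbar region and the uterus, was at 82.8 and 95.6 CPM in WT controls and at 44.8 and 50.3, 48.3 and 49.8, and 60.8 and 67.8 CPM after 5, 16 and 26 days of DAC. KO cells had 48.7 and 49.9 CPM in controls and 26.5 and 24.2, 30.9 and 32.3, and 28.6 and 29.6 CPM. The DAC libraries again lay below the controls in both lines. At day 16 the log2 change was -0.86 ± 0.09 in WT (edgeR adjusted p = 8.7e-10) and -0.64 ± 0.09 in KO (edgeR adjusted p = 9.4e-07).

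HOXA4 (ENSG00000197576, chromosome 7, 27128507 to 27130780), a gene of the neck, was at 15 and 19.4 CPM in WT controls and 7.31 and 8.53 CPM after 16 days of DAC (-1.12 ± 0.14, edgeR adjusted p = 9e-08). KO cells had 11.2 and 10.7 CPM against 4.39 and 4.9 CPM (-1.24 ± 0.16, edgeR adjusted p = 1e-07). Neither line overlapped. HOXA6, a thoracic gene of low level, was at 4.53 and 4.13 CPM in KO controls and 1.32 and 1.17 CPM at day 16 (-1.8 ± 0.32, edgeR adjusted p = 3.1e-05), and at 4.59 and 6.01 CPM against 3.1 and 2.28 CPM in WT cells (-0.97 ± 0.28, edgeR adjusted p = 0.0058). The call in WT cells was lost without WT control library 2 or WT DAC day 16 library 2 (adjusted p up to 0.095). So were its calls in WT cells at day 5 of DAC without WT control library 2, WT DAC day 5 library 2 or WT DAC day 5 library 1 (adjusted p up to 0.16) and at day 26 of DAC without WT control library 2 or WT DAC day 26 library 1 (adjusted p up to 0.39). HOXA4 lost 1 of its 12 calls, that of KO cells at day 5 of DAC without KO DAC day 5 library 2 (adjusted p up to 0.067).

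HOXA5 took another course over days. In WT cells it was at 29.5 and 31.1 CPM in controls and at 28.4 and 29.4, 16.8 and 16.8, and 24.3 and 25.1 CPM after 5, 16 and 26 days of DAC. Day 5 did not pass (-0.07 ± 0.11, edgeR adjusted p = 0.7), day 16 did (-0.85 ± 0.11, edgeR adjusted p = 1.2e-07), and the call at day 26 (-0.3 ± 0.11, edgeR adjusted p = 0.033) was lost without WT control library 2 or WT DAC day 26 library 1 (adjusted p up to 0.17). At day 26 HOXA5 in WT cells was lower with BMN alone than with DAC, at 362 and 388 counts against 520 and 560. At day 16 the order was the other way, 581 and 590 counts with BMN against 363 and 354 with DAC. In KO cells it was at 14.2 and 17.5 CPM in controls and at 13 and 10.6, 7.08 and 6.99, and 5.66 and 6.91 CPM, with a change at day 26 of -1.33 ± 0.13, edgeR adjusted p = 2.9e-10. The KO calls of HOXA5 at day 5 were lost without KO control library 2 or KO DAC day 5 library 2 (adjusted p up to 0.17) with DAC and without KO combination day 5 library 1 or KO control library 2 (adjusted p up to 0.33) with the combination. HOXA9 was at 71.9 and 72.2 CPM in WT controls and 43.2 and 42.9 CPM at day 16 (-0.74 ± 0.14, edgeR adjusted p = 8.9e-05), and at 41.9 and 46 CPM against 27.1 and 25.6 CPM in KO cells (-0.74 ± 0.15, edgeR adjusted p = 0.00019). HOXA2, which patterns the hindbrain and face, was at 21 and 20.5 CPM in WT controls and 13.1 and 14.4 CPM at day 16 (-0.59 ± 0.11, edgeR adjusted p = 8.1e-05). Neither HOXA9 nor HOXA2 overlapped in these comparisons. In KO cells HOXA2 was at 13.9 and 11.7 CPM in controls and 12.6 and 12.8 CPM at day 26 of DAC, the comparison in which it did not pass (-0.02 ± 0.12, edgeR adjusted p = 0.92). Its KO call at day 26 of the combination was lost without KO control library 1 (adjusted p up to 0.068). HOXA9 lost its KO call at day 26 of DAC without KO control library 2 or KO DAC day 26 library 1 (adjusted p up to 0.09) and that at day 5 of the combination without KO combination day 5 library 1, KO control library 2 or KO combination day 5 library 2 (adjusted p up to 0.15).

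HOXA11 (ENSG00000005073, chromosome 7, 27181157 to 27185232), which with HOXD11 is needed to form the kidney, moved the other way, though 895 bases separate its gene model from that of HOXA10. In WT cells it was at 5.29 and 4.4 CPM in controls and at 9.72 and 9.15, 11.1 and 12, and 12.4 and 11.8 CPM after 5, 16 and 26 days of DAC. The DAC libraries all lay above the controls. The log2 changes were 0.96 ± 0.17, 1.25 ± 0.17 and 1.32 ± 0.17 (edgeR adjusted p = 4.1e-05, 2.5e-07 and 1.1e-07). In KO cells it was at 4.53 and 4.19 CPM in controls and at 5.65 and 7.7 CPM at day 16 (0.62 ± 0.18, edgeR adjusted p = 0.0071) and 6.64 and 5.58 CPM at day 26 (0.49 ± 0.18, edgeR adjusted p = 0.029). The KO calls depended on single libraries: that at day 16 was lost without KO control library 2 or KO DAC day 16 library 2 (adjusted p up to 0.2), and that at day 26 without KO control library 1, KO control library 2 or KO DAC day 26 library 1 (adjusted p up to 0.22). HOXA11 rose in 8 of the 12 comparisons with DAC or the combination, in all 6 of WT cells and in 2 of 6 of KO cells. The call with the combination at day 26 in WT cells was lost without WT control library 2 or WT combination day 26 library 2 (adjusted p up to 0.11).

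HOXA13 passed in 4 of the 12 comparisons, lower with the combination at day 5 in both lines and at day 16 in WT cells, and higher at day 26 of DAC in KO cells. The KO call with the combination at day 5 rested on 3 and 6 counts against 17 and 11 in the controls. It was lost without KO control library 1 or KO combination day 5 library 1. The WT calls were lost without WT combination day 5 library 1 (adjusted p up to 0.067) at day 5 and without WT control library 2, WT combination day 16 library 2 or WT combination day 16 library 1 (adjusted p up to 0.13) at day 16. The day 26 change in KO cells went from 0.917 and 0.606 to 1.34 and 1.81 CPM (1.03 ± 0.4, edgeR adjusted p = 0.035) and was lost without KO control library 2 or KO DAC day 26 library 2 (adjusted p up to 0.22). HOXA7 passed in 1 of 12, the combination at day 16 in WT cells (-0.8 ± 0.32, edgeR adjusted p = 0.044), a call lost without WT control library 1 or WT combination day 16 library 2 (adjusted p up to 0.36).

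**Figure D4:**
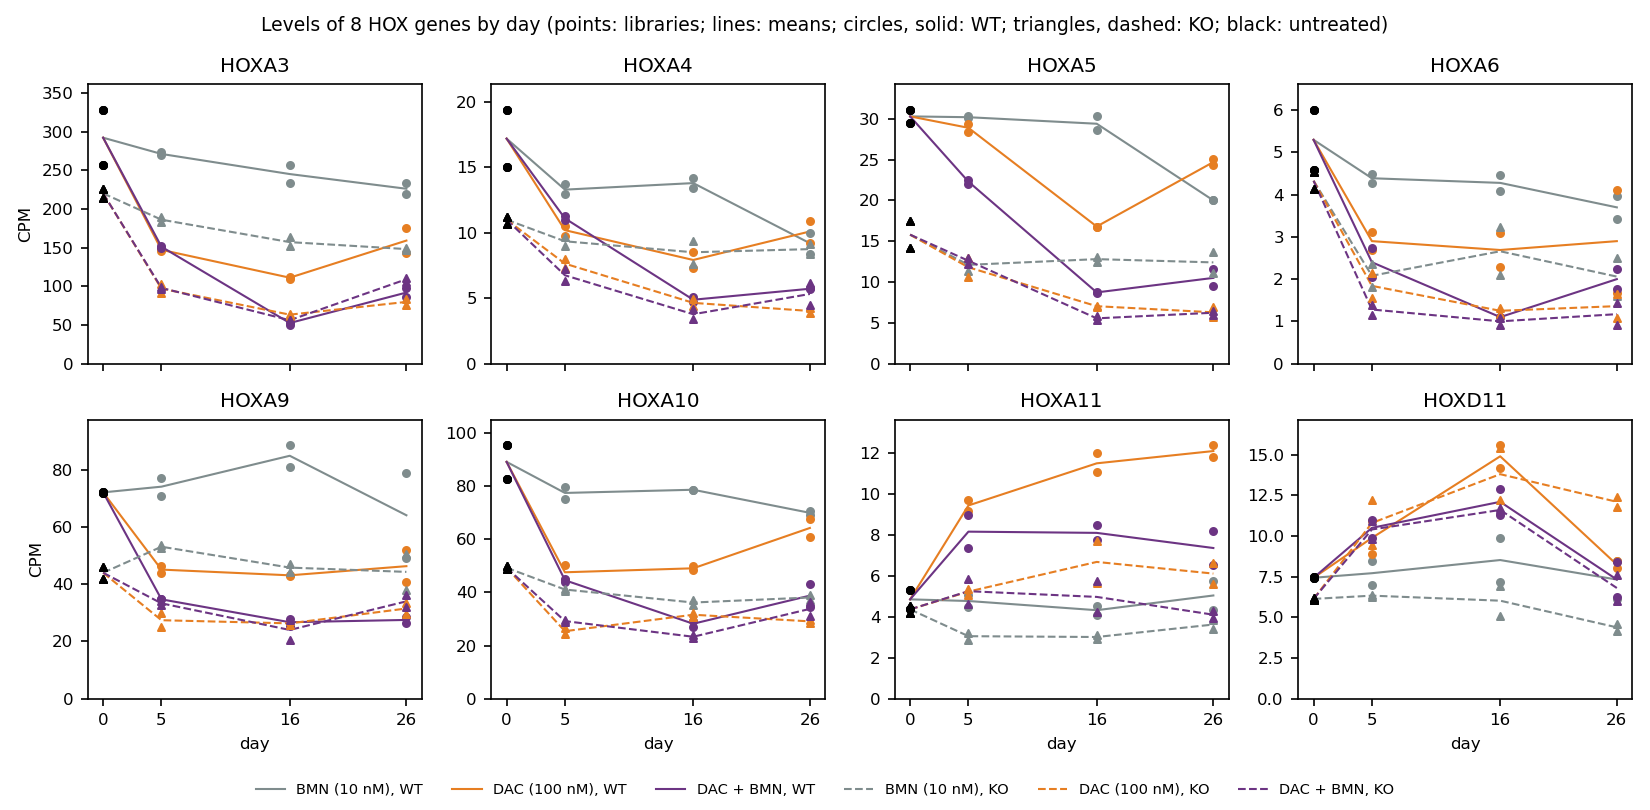
CPM of 8 HOX genes over days 0, 5, 16 and 26 for each treatment in WT and KO cells; points are libraries, lines join means and black points are untreated cells. HOXA3 with DAC lies below control at each day, at 112 and 109 in WT cells at day 16, and HOXA11 in WT cells lies above control, at 11.1 and 12.

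In HOXB, the genes numbered 8 and 9 were lower with DAC than in day 0 controls. With BMN alone HOXB8 was also lower in 3 of 6 comparisons with control and HOXB9 in 1. Of these BMN calls, those in WT cells at day 26 and that of HOXB8 in KO cells at day 16 were lost without some library. HOXB8 libraries with DAC and with BMN alone overlapped in both lines at days 16 and 26. At day 16 HOXB8 had 286 and 241 counts with DAC and 271 and 243 with BMN in WT cells. In KO cells it had 152 and 167 against 189 and 152. At day 5 it was lower with DAC, at 216 and 230 counts against 249 and 275 in WT cells. KO cells then had 150 and 133 against 182 and 177. HOXB9 (ENSG00000170689, chromosome 17, 48621156 to 48626358) was at 80.5 and 96.8 CPM in WT controls and 64.1 and 63.9 CPM after 16 days of DAC (-0.47 ± 0.09, edgeR adjusted p = 0.0001), and at 62 and 62.6 CPM against 41 and 46 CPM in KO cells (-0.52 ± 0.09, edgeR adjusted p = 4e-05). Neither line overlapped. HOXB8, a thoracic gene, fell in 10 of the 12 comparisons, with log2 changes from -0.95 to -0.49 in those, and HOXB3, a hindbrain gene, fell in 5. Of the HOXB8 calls 4 were lost without 1 library (adjusted p up to 0.2): those of WT cells at day 5 of DAC without WT control library 2 or WT DAC day 5 library 2, at day 5 of the combination without WT control library 2 or WT combination day 5 library 2 and at day 26 of the combination without WT control library 2, and that of KO cells at day 5 of the combination without KO combination day 5 library 2. Of the HOXB3 calls 3 were lost (adjusted p up to 0.44), all with DAC alone: at day 5 in WT cells without WT control library 2, and in KO cells at day 5 without KO control library 2 or KO DAC day 5 library 2 and at day 16 without KO control library 2 or KO DAC day 16 library 1. HOXB9 lost 3 of its 12 calls (adjusted p up to 0.11), at day 5 of DAC in WT cells without WT control library 2 or WT DAC day 5 library 2, at day 5 of DAC in KO cells without KO DAC day 5 library 2 and at day 26 of the combination in KO cells without KO control library 1, KO combination day 26 library 1, KO control library 2 or KO combination day 26 library 2. The other members numbered 2 to 7 passed in at most 3 of 12 each, and each of those calls was lost without some library (adjusted p up to 0.5).

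HOXB13 (ENSG00000159184, chromosome 17, 48724763 to 48728750), 98404 bases from HOXB9, rose with DAC in WT cells. It was at 0.101 and 0.311 CPM in WT controls and at 1.4 and 1.44, 0.925 and 1.66, and 1.54 and 1.66 CPM after 5, 16 and 26 days of DAC. The DAC libraries all lay above the controls, with 27 and 31, 20 and 35, and 33 and 37 counts against 2 and 6. The log2 changes were 2.76 ± 0.61, 2.62 ± 0.61 and 2.93 ± 0.6 (edgeR adjusted p = 0.00079, 0.0011 and 0.00031). KO cells had no count in the controls and were at 0.385 and 0.32 CPM after 5 days and 0.206 and 0.372 CPM after 26 days of DAC. Against the floor of 3 counts per library, 0.164 CPM, these were at least 2.15-fold and at least 1.77-fold higher (edgeR adjusted p = 0.0033 and 0.005). Day 16 in KO cells did not pass.

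HOXC had the fewest calls. With DAC alone, HOXC10 fell at day 5 in WT cells, from 7.56 and 6.11 to 4.91 and 3.99 CPM (-0.62 ± 0.21, edgeR adjusted p = 0.023), and HOXC6 rose at day 26 in KO cells, from 11 and 10 to 12.4 and 14.8 CPM (0.37 ± 0.15, edgeR adjusted p = 0.038). These were the only calls among 6 comparisons of DAC alone with control. The first was lost without WT control library 1 or WT DAC day 5 library 2 (adjusted p up to 0.22) and the second without KO control library 1, KO control library 2 or KO DAC day 26 library 2 (adjusted p up to 0.29). With the combination, HOXC4, a neck gene, fell at day 5 in WT cells from 7.06 and 6.22 to 4.14 and 3.65 CPM (-0.77 ± 0.17, edgeR adjusted p = 0.00044), without overlap. HOXC11, a gene of the lower spine, was at 0.353 and 0.518 CPM in WT controls and 1.49 and 1.68 CPM at day 26 of the combination (1.85 ± 0.61, edgeR adjusted p = 0.014), a call lost without WT control library 1 or WT combination day 26 library 2 (adjusted p up to 0.093). HOXC5 passed in none of the 12 comparisons, HOXC8 and HOXC9 in 1 each, and HOXC10 in 2. Each of these calls of HOXC8, HOXC9 and HOXC10 was lost without some library.

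In HOXD, HOXD11 rose in 8 of the 12 comparisons, and HOXD10 rose in 7 and fell in 1. HOXD11 (ENSG00000128713, chromosome 2, 176104216 to 176109754) was at 7.41 and 7.46 CPM in WT controls and 14.2 and 15.6 CPM after 16 days of DAC (1.0 ± 0.17, edgeR adjusted p = 1.9e-05), and at 6.21 and 6.06 CPM against 12.2 and 15.4 CPM in KO cells (1.17 ± 0.18, edgeR adjusted p = 2.9e-06). The DAC libraries lay well above the controls in both lines. At day 26 WT cells were at 8.45 and 8.02 CPM, which did not pass (0.15 ± 0.18, edgeR adjusted p = 0.59), and KO cells at 11.8 and 12.4 CPM (0.98 ± 0.18, edgeR adjusted p = 4.1e-05). HOXD10 was at 26.1 and 25.1 CPM in KO controls and at 31.2 and 31, 39 and 43.2, and 36.6 and 38.8 CPM after 5, 16 and 26 days of DAC, all above the controls. Its change at day 16 was 0.68 ± 0.09 (edgeR adjusted p = 1e-07). In WT cells it was at 33.6 and 31.4 CPM in controls and 45.5 and 40.5 CPM at day 16 (0.4 ± 0.09, edgeR adjusted p = 0.00029), the day of DAC alone at which it passed there. Its fall was at day 5 of the combination in WT cells, to 27.1 and 27.1 CPM (-0.26 ± 0.09, edgeR adjusted p = 0.016), and was lost without WT control library 1, WT combination day 5 library 2 or WT combination day 5 library 1 (adjusted p up to 0.12). The rises of HOXD10 at day 5 in KO cells were lost without KO control library 2, KO DAC day 5 library 2 or KO DAC day 5 library 1 (adjusted p up to 0.082) with DAC and without KO combination day 5 library 1 or KO control library 2 (adjusted p up to 0.067) with the combination, and that of HOXD11 at day 5 of the combination in WT cells without WT control library 1, WT control library 2 or WT combination day 5 library 2 (adjusted p up to 0.17). HOXD9, an abdominal and limb gene, rose at day 16 in KO cells (0.53 ± 0.15, edgeR adjusted p = 0.0042) and did not pass in WT cells (0.35 ± 0.14, edgeR adjusted p = 0.06). HOXD1, of whose exon bases 60.1% lie opposite HAGLR and another gene, rose with the combination at day 5 in KO cells, from 3.51 and 3.75 to 7.85 and 7.64 CPM (1.09 ± 0.22, edgeR adjusted p = 0.0001). HOXD3 passed in none of the 12 comparisons, and HOXD4 and HOXD8 in 2 each. Both calls of HOXD4 and 1 of those of HOXD8 were lost without some library.

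**Figure D5:**
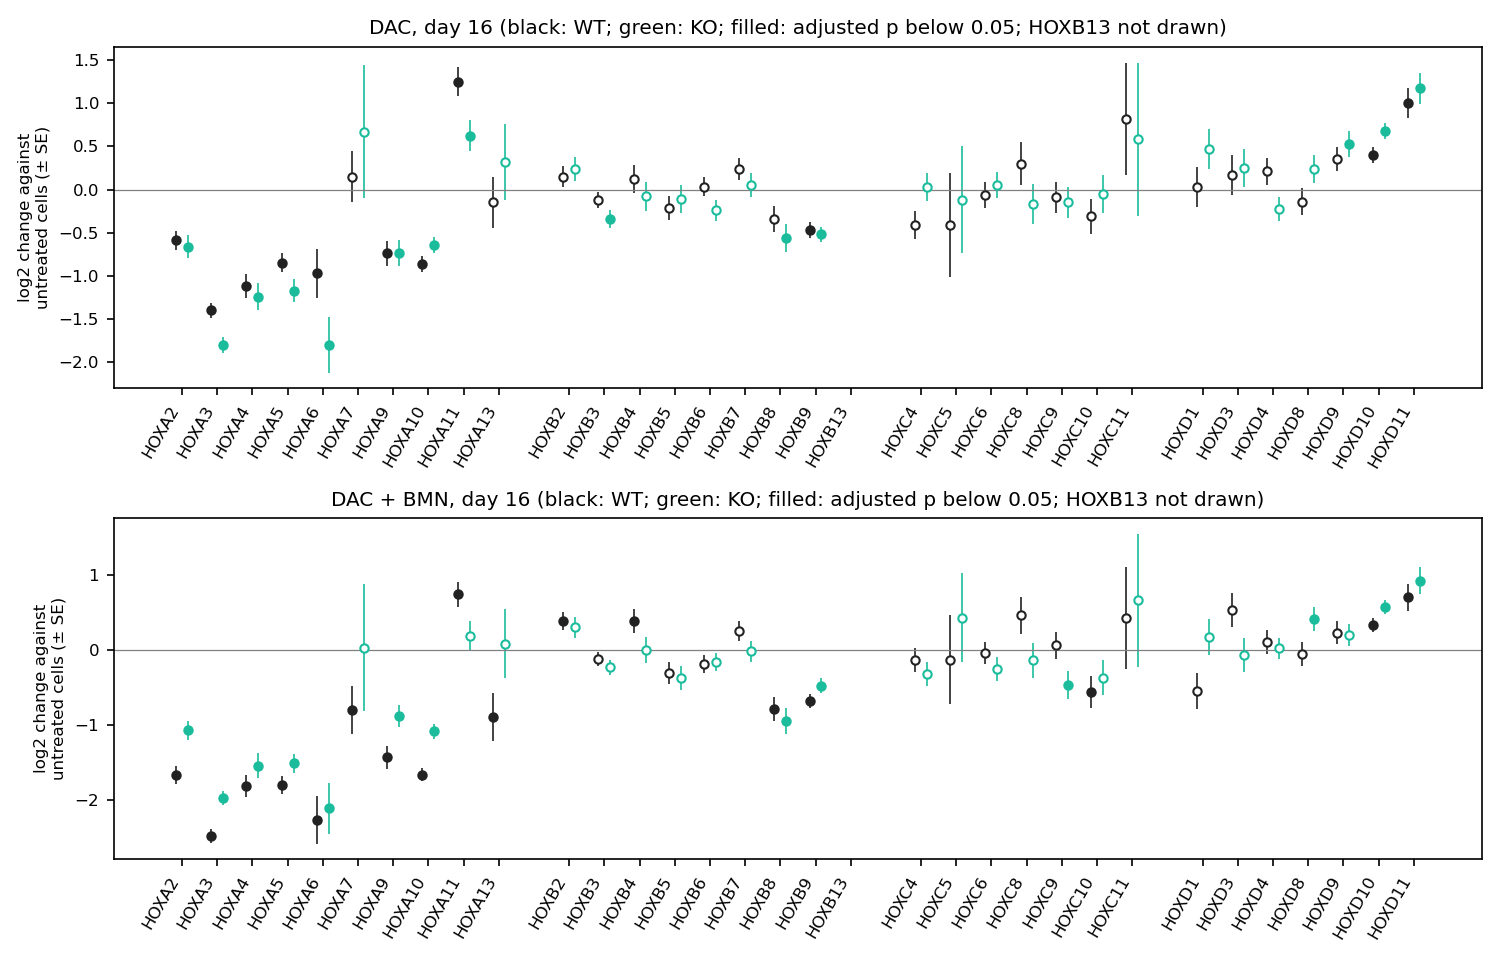
Log2 change ± SE against the line's untreated cells at day 16 for tested HOX genes in order of number, with DAC and with both drugs; filled points passed, and HOXB13 is not drawn because KO controls had no count. HOXA2 to HOXA6 lie below 0 in both lines, HOXA3 with both drugs in WT cells lowest at -2.48 ± 0.09, while HOXD10 and HOXD11 lie above 0.

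By position at day 16, the genes that rose with DAC alone were all numbered 9 to 13. They were 4 of 12 tested in WT cells and 4 of 12 in KO cells. None of the 22 tested genes numbered 1 to 8 rose in either line. Over all genes tested 18.6% rose in WT and 19.9% in KO cells. Other days of DAC alone differed in KO cells, where HOXD1 rose at day 5 (0.58 ± 0.23, edgeR adjusted p = 0.047, lost without KO control library 1, KO control library 2, KO DAC day 5 library 2 or KO DAC day 5 library 1) and HOXC6 at day 26. With the combination at day 16, 4 of 12 numbered 9 to 13 rose in WT and 2 of 12 in KO cells. Over all genes tested 22.8% rose in WT and 23.1% in KO cells. Outside that class HOXB2 and HOXB4 rose in WT and HOXD8 in KO cells. The calls of HOXB2 and HOXB4 were lost without WT control library 1 or WT combination day 16 library 1 (adjusted p up to 0.3) and without WT control library 1, WT combination day 16 library 2 or WT combination day 16 library 1 (adjusted p up to 0.35), and that of HOXD8 without KO combination day 16 library 1, KO control library 2 or KO combination day 16 library 2 (adjusted p up to 0.68). Members that fell with DAC were spread over the classes numbered 1 to 4, 5 to 8 and 9 to 13, at 3 of 11, 2 of 11 and 3 of 12 in WT cells and 5 of 11, 3 of 11 and 3 of 12 in KO cells. Over all genes tested 14.9% fell in WT and 17.8% in KO cells at day 16 of DAC, so several of these counts lie near the background. The difference between classes was not tested.

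In WT cells the HOXA sum was lower with the combination than with DAC alone at days 16 and 26, but hardly at day 5. At day 5 the HOXA sums were 311 and 308 CPM with the combination and 321 and 328 with DAC, and HOXA3 was at 152 and 150 CPM against 149 and 145, with the combination higher. HOXA4 was also higher with the combination at day 5. Other members were lower then, among them HOXA2, HOXA5 and HOXA9, without overlap. HOXA2 had 196 and 215 counts with the combination and 253 and 279 with DAC. HOXA5 had 410 and 438 against 549 and 633, and HOXA9 had 645 and 677 against 850 and 998. At day 26 the sums were 204 and 230 against 345 and 373 CPM. Averaged over the 3 days, 9 of 11 HOXA members were lower than with DAC alone, and HOXB2, HOXB3, HOXB4 and HOXD3 were higher, 13 of 34 members, where 23.1% of all genes tested passed, 12.8% lower and 10.2% higher. HOXA3 was at 54.7 and 50 CPM with the combination at day 16 and at 112 and 109 CPM with DAC, and its mean log2 difference over days was -0.61 ± 0.05 (edgeR adjusted p = 2.4e-11). HOXA5 had the largest difference, -0.85 ± 0.07 (edgeR adjusted p = 3.3e-12), at 8.62 and 8.83 CPM against 16.8 and 16.8 at day 16 and 9.48 and 11.6 against 24.3 and 25.1 at day 26. At these days the combination lay below DAC without overlap, though libraries pooled over days overlap. HOXA11, which rose with DAC, was also lower with the combination (-0.48 ± 0.09, edgeR adjusted p = 0.00013), at 7.73 and 8.48 CPM against 11.1 and 12 at day 16.

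In KO cells fewer members separated the combination from DAC. HOXA2 (-0.5 ± 0.08, edgeR adjusted p = 7.4e-06) and HOXA11 (-0.33 ± 0.11, edgeR adjusted p = 0.02) were lower with the combination. HOXC4, HOXC6, HOXD10 and HOXD11 were lower too. In both directions together 7 of 34 members passed, where 22.8% of all genes tested passed, 11.8% lower and 10.9% higher. Without KO combination day 5 library 1, KO DAC day 16 library 2 or KO DAC day 5 library 1, 4 passed in each case. HOXA3 was at 56.4 and 55.7 CPM with the combination and 61.7 and 64.6 with DAC at day 16, and at 111 and 106 CPM against 75.8 and 83.6 at day 26, so the order differed between these days. Whether the addition of BMN acted differently in the lines was not tested.

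BMN alone lowered at most 8 of 34 members at any day in either line. In WT cells none of 34 passed with edgeR at days 5 and 16, where 0.186% of all genes tested passed, 0.04% lower and 0.146% higher at day 5, and 0.684% of all genes tested passed, 0.426% lower and 0.257% higher at day 16. An unadjusted p below 0.05 was reached by 3 and 7, and DESeq2 called 0 at either day. Without WT control library 1, 8 were lower at day 16. In WT cells 8 were lower at day 26, where 23% of all genes tested passed, 11% lower and 12% higher. That count was 3 without WT control library 2 and 5 without WT BMN day 26 library 1. KO cells had 2 lower at day 5, where 11.7% of all genes tested passed, 6.65% lower and 5.07% higher. At day 16 they had 7, where 25.5% of all genes tested passed, 15.2% lower and 10.3% higher, and 8 at day 26, where 33.1% of all genes tested passed, 17.5% lower and 15.6% higher. No member was higher in any of the 6 comparisons. At day 5 HOXA5 and HOXA6 passed, and none did without KO control library 2 or without either BMN library. At day 16 the count was 4 without KO control library 2 and 3 without KO BMN day 16 library 2, and at day 26 it was 4 without KO BMN day 26 library 2.

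HOXA3 with BMN alone was at 147 and 150 CPM at day 26 in KO cells, below the controls at 214 and 226 CPM (-0.57 ± 0.09, edgeR adjusted p = 6.9e-06). In WT cells it was at 219 and 234 CPM against 257 and 328 (-0.37 ± 0.09, edgeR adjusted p = 0.0023), a call lost without WT control library 2 (adjusted p up to 0.22). HOXA4 fell in WT cells to 8.38 and 10 CPM at day 26 (-0.9 ± 0.14, edgeR adjusted p = 2e-05), beside 9.25 and 10.9 CPM with DAC at that day. Both genes lay below their controls without overlap.

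DAC was also set against BMN at matched days, averaged over the 3 days, a comparison that does not use the day 0 cells. In WT cells 10 members were lower with DAC, 7 of them HOXA, and 7 higher, where 42.7% of all genes tested passed, 19.4% lower and 23.3% higher. In KO cells 9 were lower, 8 of them HOXA, and 11 higher, where 51.5% of all genes tested passed, 23% lower and 28.5% higher. HOXA3 differed by -0.85 ± 0.05 in WT (edgeR adjusted p = 9e-16) and -1.05 ± 0.05 in KO (edgeR adjusted p = 3.9e-18). All 6 DAC libraries of a line lay below all 6 BMN libraries. HOXA10 differed by -0.5 ± 0.05 and -0.43 ± 0.05 (edgeR adjusted p = 3.9e-10 and 4.8e-08), and HOXA11 by 1.22 ± 0.1 and 0.89 ± 0.11 (edgeR adjusted p = 1.4e-12 and 2.1e-08). Neither overlapped. HOXD11 differed by 1.15 ± 0.11 in KO cells (edgeR adjusted p = 4e-11) and by 0.44 ± 0.1 in WT cells (edgeR adjusted p = 0.00054), where libraries overlap.

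From day 5 to day 26 of DAC in WT cells HOXA10 rose (0.43 ± 0.09, edgeR adjusted p = 0.00048), as did HOXA13 (1.19 ± 0.3, edgeR adjusted p = 0.0041) and HOXC10, while HOXD1 fell, 4 of 34 members, where 21.7% of all genes tested passed, 9.14% lower and 12.6% higher. Without WT DAC day 5 library 1 or WT DAC day 26 library 1, 1 passed. The call of HOXA13 was lost without WT DAC day 5 library 1 or WT DAC day 26 library 1 (adjusted p up to 0.087). In KO cells 6 rose and 4 fell, where 35.9% of all genes tested passed, 17.8% lower and 18.1% higher. HOXA4 went from 7.97 and 7.31 to 4.22 and 3.83 CPM (-0.92 ± 0.17, edgeR adjusted p = 5e-05), HOXA5 fell too (-0.91 ± 0.13, edgeR adjusted p = 1.7e-06), and HOXA2 rose from 8.02 and 7.68 to 12.6 and 12.8 CPM (0.69 ± 0.13, edgeR adjusted p = 5.2e-05). None of these 3 overlapped between the days. HOXA3 fell (-0.28 ± 0.09, edgeR adjusted p = 0.016), a call lost without KO DAC day 5 library 1 or KO DAC day 26 library 1 (adjusted p up to 0.23).

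The response to DAC, averaged over days, differed between the lines for 5 of 34 members, where 8.82% of all genes tested passed, 5.17% lower and 3.66% higher. The log2 change was more negative in KO cells for HOXA3 (-0.39 ± 0.1, edgeR adjusted p = 0.01) and HOXA5 (-0.57 ± 0.13, edgeR adjusted p = 0.0041). HOXA11 rose less in KO cells (-0.72 ± 0.21, edgeR adjusted p = 0.027), and HOXD10 rose more (0.34 ± 0.1, edgeR adjusted p = 0.033). Each of the 4 calls named depended on single libraries. HOXA3 was lost without WT control library 1 or KO control library 2 (adjusted p up to 0.22), HOXA5 without KO control library 2 (adjusted p up to 0.1) and HOXA11 without KO control library 1, WT control library 2 or KO control library 2 (adjusted p up to 0.14). HOXD10 was lost without WT control library 1, KO control library 1, WT DAC day 5 library 2, WT DAC day 16 library 2, KO control library 2, KO DAC day 16 library 2 or KO DAC day 26 library 2 (adjusted p up to 0.17). In a fit of only the libraries of this comparison 2 members passed.

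Genes in and around the clusters, and genes that act with HOX proteins, were described from lists. Their counts at day 16 of DAC stand against 14.9% of all genes tested lower and 18.6% higher in WT cells and 17.8% and 19.9% in KO cells, and several lie near those shares. Of 18 noncoding genes inside the clusters 12 were tested, and at day 16 of DAC 4 fell and 3 rose in WT cells and 5 fell and 0 rose in KO cells. HOTAIRM1, a noncoding RNA of the HOXA cluster, was at 23.7 and 27.7 CPM in WT controls and 14.5 and 14 CPM (-0.85 ± 0.17, edgeR adjusted p = 0.00018), and at 21.2 and 18.5 CPM against 9.44 and 8.52 CPM in KO cells (-1.15 ± 0.19, edgeR adjusted p = 6.5e-06). HOXA-AS2, opposite HOXA3, was at 28.6 and 28.8 CPM in KO controls and 18.1 and 16.9 CPM (-0.71 ± 0.09, edgeR adjusted p = 1.4e-07), and it fell in WT cells too (-0.41 ± 0.09, edgeR adjusted p = 0.00036). Both lay below their controls without overlap. HOXB-AS1 rose in WT cells, from 2.82 and 3.83 to 5.92 and 5.21 CPM (0.74 ± 0.19, edgeR adjusted p = 0.0018), and did not pass in KO cells (0.36 ± 0.21, edgeR adjusted p = 0.19).

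Of 15 genes flanking the clusters 11 were tested, and at day 16 of DAC 3 fell and 2 rose in WT cells and 4 fell and 0 rose in KO cells. SKAP2, an adaptor protein encoded on a flank of HOXA, was at 179 and 158 CPM in WT controls and 98.7 and 107 CPM (-0.71 ± 0.09, edgeR adjusted p = 2.8e-08), and at 94.1 and 82 CPM against 61 and 56 CPM in KO cells (-0.59 ± 0.09, edgeR adjusted p = 1.8e-06). HIBADH, an enzyme of valine breakdown encoded beyond HOXA13 on the other flank, fell in both lines (-0.3 ± 0.08, edgeR adjusted p = 0.003, and -0.29 ± 0.08, edgeR adjusted p = 0.0053). At day 26 in WT cells HIBADH did not pass (-0.06 ± 0.08, edgeR adjusted p = 0.61). A fall was not particular to the flanks of HOXA: CBX5, a heterochromatin protein encoded beside HOXC, fell in both lines (-0.74 ± 0.07, edgeR adjusted p = 3.7e-10, and -0.4 ± 0.07, edgeR adjusted p = 4e-05), and CALCOCO1, also beside HOXC, in KO cells (-0.34 ± 0.11, edgeR adjusted p = 0.013). SKAP2 and HIBADH were also lower in KO than in WT controls, SKAP2 by 0.94 ± 0.09 (edgeR adjusted p = 1.2e-10) and HIBADH by 0.61 ± 0.08 (edgeR adjusted p = 2.9e-07) on the log2 scale.

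The TALE cofactors, homeodomain proteins that bind DNA beside HOX proteins, were all tested, and at day 16 of DAC 2 of 9 rose and 1 fell in WT cells and 3 rose and 2 fell in KO cells. MEIS3 rose from 1.21 and 0.829 to 10.2 and 8.44 CPM in WT cells (3.18 ± 0.3, edgeR adjusted p = 1.2e-10) and from 0.378 and 0.441 to 3.4 and 3.62 CPM in KO cells (3.08 ± 0.4, edgeR adjusted p = 1.1e-07). Of 24 Polycomb genes 2 rose and 2 fell in WT cells, and 3 rose and 7 fell in KO cells. JARID2, which helps recruit Polycomb complexes, rose in WT and KO cells (0.71 ± 0.09, edgeR adjusted p = 7e-08, and 0.67 ± 0.09, edgeR adjusted p = 2.2e-07), and CBX6, a Polycomb chromodomain protein, fell in both (-0.63 ± 0.09, edgeR adjusted p = 4.7e-07, and -1.01 ± 0.09, edgeR adjusted p = 1.8e-11). Of 14 trithorax genes and H3K27 demethylases 0 rose and 3 fell in WT cells, and 2 rose and 6 fell in KO cells. KMT2A, a methyltransferase that keeps HOX genes active, fell in both (-0.49 ± 0.06, edgeR adjusted p = 7.5e-08, and -0.44 ± 0.06, edgeR adjusted p = 5.6e-07). In KO cells KMT2A was not called lower at day 5 or day 26 of DAC. The trithorax genes that rose in KO cells at day 16 were ASH2L and KMT2D.

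Of 10 retinoid genes 9 were tested, and at day 16 of DAC 2 rose and 4 fell in WT cells and 1 rose and 5 fell in KO cells. The retinoic acid receptor RARG was at 28.8 and 35.1 CPM in WT controls and 22.3 and 22.6 CPM (-0.51 ± 0.12, edgeR adjusted p = 0.0011), and STRA6, a retinol transporter, rose from 4.79 and 5.18 to 45.2 and 38.8 CPM (3.07 ± 0.16, edgeR adjusted p = 2.1e-17). In KO cells RARG also fell (-0.77 ± 0.13, edgeR adjusted p = 7.8e-06) and STRA6 rose (5.55 ± 0.24, edgeR adjusted p = 1.9e-19). Of 17 regulators of kidney development 12 were tested, and 5 rose and 5 fell in WT cells and 4 rose and 4 fell in KO cells. PAX2, a factor of the embryonic kidney, went from 50.3 and 64.1 to 24.8 and 26.2 CPM in WT cells (-1.16 ± 0.12, edgeR adjusted p = 1.6e-09), and WT1, a factor of nephron progenitors and podocytes, from 14.9 and 15.2 to 41.2 and 41.7 CPM (1.46 ± 0.09, edgeR adjusted p = 5.4e-15). PAX2 fell (-1.72 ± 0.12, edgeR adjusted p = 1.3e-13) and WT1 rose (1.22 ± 0.09, edgeR adjusted p = 1.3e-13) in KO cells too. These pairs of groups did not overlap. None of the 6 ParaHox and caudal genes, relatives of HOX genes outside the clusters, had enough counts to be tested. The median log2 changes in WT and KO cells were -0.3 and -0.4 for the noncoding genes, -0.02 and -0.22 for the flanking genes, 0.11 and 0.25 for the TALE cofactors, -0.02 and -0.07 for Polycomb, -0.06 and -0.1 for trithorax, -0.38 and -0.29 for the retinoid and -0.05 and 0.12 for the kidney genes, against 0.03 and 0.04 over all genes tested.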

How the data were processed

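RNA of 40 libraries was sequenced with a total RNA kit. The deposited table holds raw counts of fragments per gene, which the authors made with featureCounts 1.5.0-p1 on GRCh38 with Ensembl 104 (strand setting 1, minimum mapping quality 20, duplicates ignored), per the file headers. An alignment program is named only within file names in that header. Fragments overlapping several genes of a strand were not counted.

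From these counts, genes kept by edgeR's filterByExpr (minimum count 10, total 15) were scaled with TMM and tested with edgeR 4.0.16 in R 4.3.3, in 1 model with a mean for each of 20 groups, and p-values were adjusted by Benjamini-Hochberg over 22527 genes within each of 26 comparisons. The procedure was tested on simulated data. Alternatives were DESeq2 1.42.0 (its test and its size factors), 2 other filters, a replicate block, only the libraries compared, and each library left out. CPM per kb uses the summed exon length of the table.

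The members, gene lists and tests were chosen with earlier results of these data known. In a comparison, members were named from those that passed at 1 CPM or more without overlap of libraries, but not all of those were named. Members named otherwise, among them HOXB13, HOXA3 in averages over days and those that did not pass, were chosen after their values were seen. At most 4 genes of a list that passed at 1 CPM or more were named. The lists of markers served to check the cells. Results of some items are not reported here, in the text or the figures, though the counts over members and lists include them.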

Additional observations from a re-analysis of the deposited data

Results flagged for a closer look

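The response to DAC, taken as the mean log2 change over days 5, 16 and 26, differed between KO and WT cells for the HOX genes named here by a test of the difference itself in edgeR. KO minus WT was -0.72 for HOXA11, -0.57 for HOXA5, -0.39 for HOXA3 and 0.34 for HOXD10. HOXA3 and HOXA5 fell in both lines at day 16, further in KO cells, while HOXA11 rose further in WT cells. None of these 4 calls held through the removal of each library in turn.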

How the results depend on the processing

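Counts of HOX genes that passed stayed within 1.5 times the reported count in 149 of 156 alternative fits other than those leaving out a library. Single genes were checked for HOX members that passed at 1 CPM or more without overlap, or in the response of KO minus WT. None of these 242 results changed direction. The call was lost in 83 of 1452 single-gene fits other than those leaving out a library, and more were lost without 1 library. Genes of the lists were not in this check. With only the compared libraries in the fit, which leaves few residual degrees of freedom, the count was 12 in place of 21 for KO against WT controls, 5 in place of 12 for WT DAC at day 26, 1 in place of 8 for WT BMN at day 26, 5 in place of 2 for KO BMN at day 5, 1 in place of 4 for WT DAC day 26 against day 5, and 2 in place of 5 for the response to DAC in KO minus WT. With no filter on low counts WT BMN at day 16 gave 2 in place of 0; the cause was not tested. Leaving out 1 library gave counts from 8 to 13 for KO DAC at day 5, 0 to 8 for WT BMN at day 16, 3 to 8 for WT BMN at day 26, 0 to 1 for KO BMN at day 5, 3 to 8 for KO BMN at day 16, 4 to 8 for KO BMN at day 26, 4 to 7 for the combination against DAC in KO cells, 1 to 4 for WT DAC day 26 against day 5 and 1 to 6 for the response in KO minus WT. A group left with 1 library was assumed to vary like the others. Per length without shared bases, the 10 highest members of the controls were the same genes. Members under about 1 CPM are limited by depth.

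Over 190 pairs of groups the deviations between replicate numbers had a median correlation of 0.00188, from -0.58 to 0.72, and 44 pairs were over 0.1. With so wide a range, the median cannot show whether libraries of some groups were paired or shared a batch. With the replicate block, 21 members passed for KO against WT controls, as without it, and all 26 counts stayed within 1.5 times. The block ended the calls of HOXB4 with the combination at day 16 in WT cells (edgeR adjusted p = 0.052) and of HOXA11 with BMN at day 16 in KO cells (edgeR adjusted p = 0.051).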
